A study of Mus musculus with 7 samples.

Results

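The matrix metalloproteinases Mmp2, Mmp3, Mmp8, Mmp9, Mmp12 and Mmp14 and the tissue inhibitors Timp1, Timp2, Timp3 and Timp4 were followed in hearts of adult female mice. Members were all non-control probes that the scanner files name for one of these 10 genes, which gave 18 probes of the 56605 distinct non-control probes on each array. All 10 genes had a probe bright enough for the fit, which covered 22971 genes. The samples were 3 wild type heart samples, labelled NTg + Tamoxifen, and 4 heart samples in which Brg1 and Brm were knocked out, labelled Tg + Tamoxifen, each called a heart below. SWI/SNF complexes, which move nucleosomes, run on either Brg1 (encoded by Smarca4) or Brm (encoded by Smarca2) as their ATPase. Brg1 was deleted by tamoxifen, through the MHC Cre-ERT transgene that acts in cardiomyocytes, in mice already null for Brm. By their labels both groups received tamoxifen, and NTg and Tg are not spelled out there. The sources used here do not say whether the wild type mice carried Brm. More samples are named in the series' design, and only these 7 were analysed here. The labels do not say that every sample came from its own mouse, so p-values cover the spread between samples, which may be technical.

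Matrix metalloproteinases are zinc-dependent enzymes that cleave collagens, elastin, proteoglycans and growth factor precursors outside the cell. They are made as inactive proenzymes, activated by removal of a propeptide, and blocked by TIMPs, small proteins that occupy the active site. In the injured heart they are known for turning over the collagen scaffold, with fibroblasts, macrophages, neutrophils and other cells as sources. TIMPs differ in the proteases they favour: Timp2 also takes part in activating the Mmp2 proenzyme at the cell surface together with Mmp14, and Timp1 binds the Mmp9 proenzyme.

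Signals are given relative to the 75th percentile of the non-control probes of their array, and a difference is the knockout mean less the wild type mean of the log2 values. A gene was called when its limma p-value, adjusted over all 22971 genes, was under 0.05. Of all genes, 16.3% were called higher, 25.8% lower, and 42.1% in either direction, and the wild type and knockout arrays did not overlap in 51.2%. The 75th percentile of the spot signal was itself 955 to 1079 on wild type and 1245 to 1708 on knockout arrays. Scaled to spike-in RNA instead, the median over all genes moved from -0.12 to 0.44, so every direction below is relative to the array's own 75th percentile unless stated. Smarca4 was at 32.8 to 34.7 in wild type and 5.87 to 14.9 in knockout, and its difference was -1.87 (SE 0.29, adjusted p = 0.0021, limma). Smarca2 was at 1.82 to 2.04 in wild type and 1.89 to 2.21 in knockout. The sources used here do not give the deleted exons, so a Smarca2 probe outside them checks nothing.

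The labels name cardiomyocytes, while the RNA kit was one for tissue. All 10 cardiomyocyte markers were well above background on every array, and so were all 10 fibroblast and all 8 endothelial markers. Of 10 fibroblast markers 8 were called higher and 0 lower; their summed signal was 305 to 336 in wild type and 577 to 800 in knockout. Macrophage markers were higher for 6 of 10 and 0 were lower, at sums of 103 to 113 and 117 to 227. Of 10 neutrophil markers 0 were called higher and 1 lower, with a median difference of 0.88 and sums of 48.7 to 52.4 and 38.8 to 54.8. Smooth muscle and pericyte markers were called higher for 4 of 8, with a median difference of 0.59 and sums of 128 to 143 and 561 to 621. Of 8 endothelial markers 1 was called higher and 2 lower, at sums of 58.7 to 62.6 and 60.7 to 81.7. Cardiomyocyte markers were called lower for 9 of 10, with sums of 5490 to 5913 and 2325 to 3079. The labels give the source as heart, and markers of several cell types were present. In RNA of mixed cells a change in the number of cells of a type and a change in RNA per cell cannot be told apart. The part of these marker differences in the protease and inhibitor results was not tested.

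Proteases and inhibitors did not follow 1 pattern. Among the proteases, Mmp2, Mmp14, Mmp3, Mmp12 and Mmp8 were called higher in knockout hearts and Mmp9 was called lower, so that 5 of 6 were higher and 1 lower. The median difference of the 6 proteases was 1.96. Among the inhibitors, Timp1 and Timp2 were called higher, Timp3 and Timp4 were not called, and the median was 0.12. The median over all genes was -0.12, with 16.3% of them called higher and 25.8% lower. Mmp3 and Mmp12 were above the background limit on none of the wild type arrays and entered the fit only through the knockout arrays. With these proteases at the lower bound of their change, the protease median was 1.61.

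**Figure D1:**
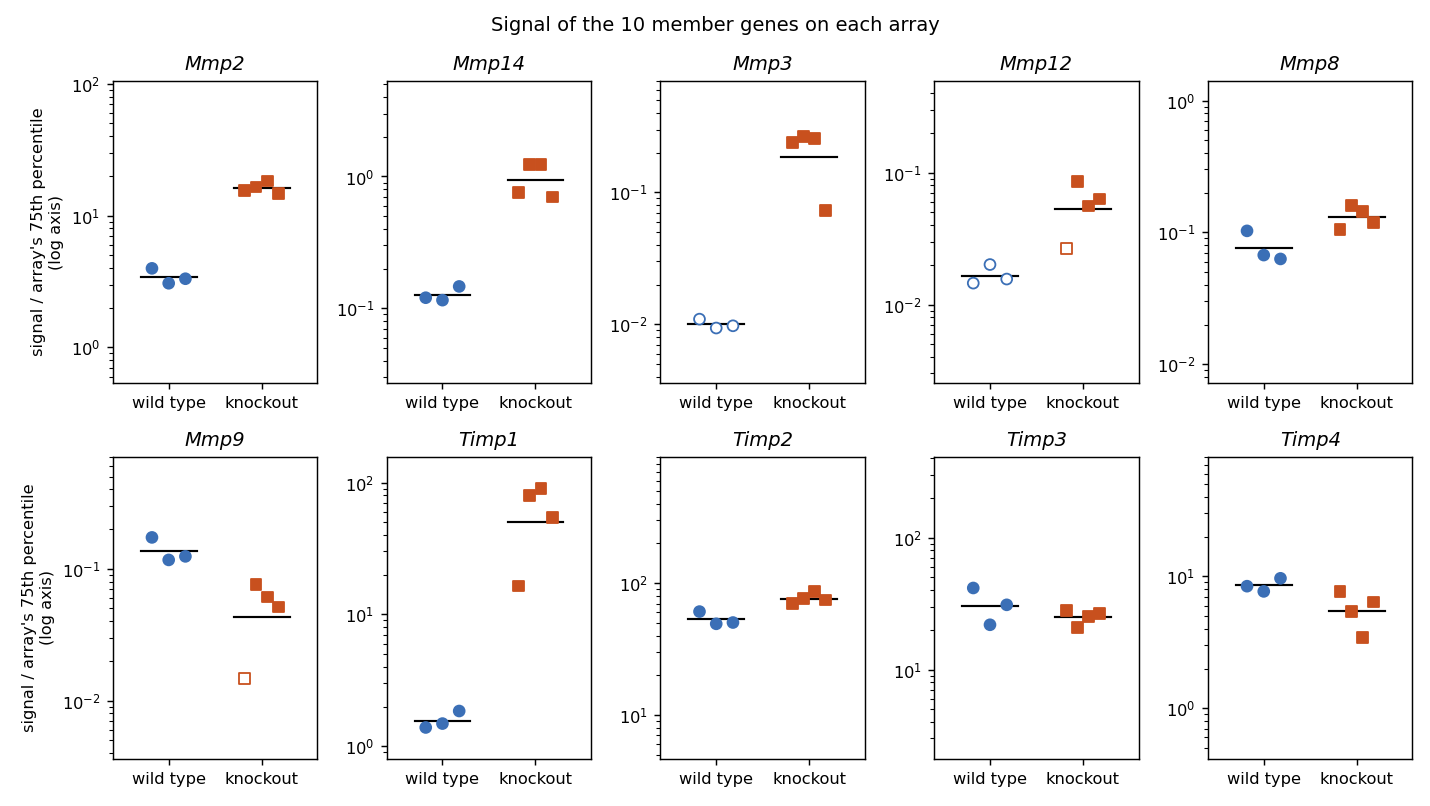
Signal of each member gene on each array, divided by that array's 75th percentile, on a log axis whose range spans the same fold in every panel. Circles are the 3 wild type and squares the 4 knockout arrays, open symbols are spots not well above background, and lines are group means of the log values. The groups do not overlap for any member but Timp3, beside 51.2% of all genes without overlap. The wild type values of Mmp3 and Mmp12 are under the background limit, and Timp4 was not called. Timp1 is higher in every knockout than in any wild type heart.

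Mmp2, the secreted gelatinase A, and Mmp14, the membrane-bound protease that activates it, rose in all 4 knockout hearts. In the order Wild Type_181, Wild Type_183, Wild Type_189, the relative signal of Mmp2 was 3.98, 3.07 and 3.32. It was at 15.5 in Mutant_175, 16.5 in Mutant_182, 18.3 in Mutant_187 and 14.8 in Mutant_188, and the arrays keep this order below. Every knockout value lay far above the wild type range, and the knockouts were close to each other, with an SD of 0.13 on the log2 scale. The log2 fold change was 2.24 (SE 0.14, adjusted p = 4.4e-05, n = 3 and 4, limma), which is 4.71-fold.

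Mmp14 had a relative signal of 0.120, 0.115 and 0.147 in the wild type hearts, in the same order. It was at 0.754, 1.23, 1.24 and 0.699 in the knockout hearts. The groups did not overlap, and Mutant_182 and Mutant_187 were the higher of the knockouts. The log2 fold change was 2.90 (SE 0.25, adjusted p = 0.00016, limma), or 7.47-fold. The Mmp2 probe lies on chromosome 8 at 95376840 to 95376899 and the Mmp14 probe on chromosome 14 at 55058775 to 55058834, in mm9 coordinates. An mm9 gene annotation was not used here, so the exon that each probe reads is not stated. With the other scalings, probe rules and left-out arrays, Mmp2 stayed between 2.16 and 2.80 and Mmp14 between 2.22 and 3.47, and both were called higher in all 19.

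Mmp3 (stromelysin 1) and Mmp12 (macrophage elastase) were below that limit on the 3 wild type arrays and appeared in the knockouts. Mmp3 cleaves proteoglycans and activates other proenzymes, and Mmp12 degrades elastin. The Mmp3 signal was 0.0109, 0.00936 and 0.00974 in the wild type hearts. It was 0.240, 0.267 and 0.257 in Mutant_175, Mutant_182 and Mutant_187 and 0.0728 in Mutant_188. The first 3 were nearly equal, and Mutant_188 was the lowest but still above every wild type heart. Mmp3 was at least 6.86-fold higher in knockout. The adjusted p of 0.00040 (limma) belongs not to this bound but to the log2 fold change of 4.22. That change uses wild type values under the background limit, and Mmp3 passed the filter only through the knockouts, so the p is no separate support. The bound sets the mean of the knockout hearts against, on each wild type array, the dimmest signal that still counted as well above background, or the probe's own if higher. It holds for the 75th percentile scaling: after normexp background correction with an added offset and quantile normalization the log2 fold change was 1.55, which is smaller than the bound.

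Mmp12 had 3 probes, of which 1 passed the filter. At that probe, on chromosome 9 at 7358559 to 7358618, the signal was 0.0145, 0.0201 and 0.0156 in the wild type hearts. It was 0.0267, 0.0864, 0.0559 and 0.0632 in the knockouts, and the first of these, Mutant_175, was not well above background. The groups did not overlap, but Mutant_175 was nearer to the wild type hearts than to the other knockouts. Mmp12 was at least 1.97-fold higher, and its log2 fold change was 0.49 with normexp, under that bound. The adjusted p of 0.0093 (limma) belongs to the log2 fold change of 1.69, from wild type values under the background limit, and is no separate support. The other Mmp12 probes, at 7352935 to 7352994 and at 7354810 to 7355325, were not well above background on any of the 7 arrays and gave no value. The Mmp12 result therefore rests on 1 probe of 3.

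Mmp3, Mmp12 and Mmp8 belong to a run of 10 metalloproteinase genes on mouse chromosome 9, in the order Mmp13, Mmp12, Mmp1b, Mmp3, Mmp1a, Mmp10, Mmp8, Mmp27, Mmp20 and Mmp7 in the RefSeq annotation of GRCm38.p6, with 0 other protein-coding genes between its ends. Only these 3 of the 10 had a probe well above background on at least 3 arrays. Mmp13, a collagenase, passed the background limit on 1 of 4 knockout arrays and 0 of 3 wild type arrays. Mmp10, Mmp1a, Mmp1b, Mmp27, Mmp20 and Mmp7 were well above background on 0 arrays. Of the 3 detected genes of the run, Mmp8 was measured in both groups.

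Metalloproteinase promoters are known for binding sites of AP-1, the dimers of Fos and Jun proteins, often near sites of ETS factors. RefSeq windows of 250 bases before to 50 bases after each gene start (GRCm38.p6) were matched for 8 of the 10 members, in 9 windows, since Mmp12 has more than 1 start. The AP-1 motif TGAGTCA, on either strand, was in 2 of the 9 windows, those of Mmp3 and of 1 Mmp12 start, beside 5.2% of 32851 windows of all genes. It began 46 and 44 bases before the start. The 100 bases before each start are shown because both genes were well above background in knockout hearts only, with the motif in capitals. The Mmp3 stretch is chr9:7445722-7445821 and the Mmp12 stretch chr9:7347274-7347373, both on the plus strand.
Mmp3: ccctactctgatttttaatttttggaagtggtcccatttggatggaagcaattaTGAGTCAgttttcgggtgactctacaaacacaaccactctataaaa
Mmp12: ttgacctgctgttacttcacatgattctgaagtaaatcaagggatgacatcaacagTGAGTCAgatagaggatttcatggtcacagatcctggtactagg
A match of letters is a description and does not show that a factor binds there.

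Mmp8 (neutrophil collagenase) and Mmp9 (gelatinase B) are known as granule proteases of neutrophils, and here they moved in opposite directions. Mmp8 had a relative signal of 0.103, 0.0673 and 0.0629 in the wild type hearts and 0.105, 0.160, 0.144 and 0.120 in the knockout hearts. The highest wild type heart, Wild Type_181, came close to the lowest knockout, Mutant_175. The log2 fold change was 0.78 (SE 0.22, adjusted p = 0.025, limma). Without Wild Type_183, Wild Type_189, Mutant_182 or Mutant_187 the call was lost, with adjusted p = 0.092, 0.095, 0.061 and 0.054 (limma).

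At its brighter probe Mmp9 had a signal of 0.173, 0.117 and 0.124 in the wild type hearts. It was 0.0148, 0.0756, 0.0611 and 0.0513 in the knockouts, and the first of these, Mutant_175, was not well above background. All knockout values were below all wild type values, with Mutant_175 far below the rest. The log2 fold change was -1.65 (SE 0.53, adjusted p = 0.041, limma), close to the threshold. The probe covers 60 bases that lie within 164779091 to 164780300 on chromosome 2, a span of 1210 bases, so its match to the genome is interrupted. The other Mmp9 probe, at 164780620 to 164780679, was not called (95% interval of the log2 difference -2.54 to 0.54, SE 0.66, adjusted p over all probes 0.26, limma) with overlapping groups. There the wild type hearts were at 0.0777, 0.0355 and 0.0412 and the knockouts at 0.00786, 0.0605, 0.0364 and 0.0199. The mean of both probes was not called either, at -1.33 (adjusted p = 0.11, limma). With the percentile of probes bright on every array the value was -1.54 (adjusted p = 0.057), and with spike-in scaling -1.08 (adjusted p = 0.13, limma). Without the filter on dim probes the adjusted p was 0.070 (limma). Leaving out Wild Type_181, Wild Type_183, Wild Type_189 or Mutant_188 gave an adjusted p of 0.12, 0.085, 0.090 and 0.067 (limma). Without Mutant_175 the fall was smaller, at -1.13, and still called. Beside these proteases, the 10 neutrophil markers had a median difference of 0.88. Csf3r, the receptor of granulocyte colony-stimulating factor, fell by 0.44 (adjusted p = 0.023, limma) and was the only one called. Ly6g was at 0.0067, and the other 8 were at 0.67 to 1.97. The part of neutrophil markers in the Mmp8 and Mmp9 results was not tested.

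Timp1 rose in all 4 knockout hearts. This secreted inhibitor, known to be induced by cytokines and growth factors, had a relative signal of 1.39, 1.48 and 1.85 in the wild type hearts. It was at 16.4, 80.2, 90.7 and 54.5 in the knockout hearts. The lowest knockout, Mutant_175, was still well above the highest wild type heart, and the others were higher again. The log2 fold change was 5.02 (SE 0.56, adjusted p = 0.00048, n = 3 and 4, limma), a 32.4-fold difference. Over the 19 alternatives it stayed between 4.73 and 5.58 and was always called higher. The probe lies on the X chromosome at 20451675 to 20451733 (mm9).

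The Timp1 promoter window held 0 copies of TGAGTCA. It held TGAGTAA, a variant of the AP-1 motif, which occurs on either strand in 2.68% of all windows. It also held the ETS motif AGGAAG, read on the other strand as CTTCCT, at 3 places, a motif found in 35.4% of all windows and in 7 of the 9 member windows. The stretch with both motifs is shown, with them in capitals, because Timp1 rose in every knockout heart. It runs from base 21 to base 50 after the start, chrX:20870186-20870215 on the plus strand of GRCm38.p6.
Timp1: ggtggaTGAGTAAtgcgtccAGGAAGcctg
TGAGTAA was found in none of the other 8 member windows.

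Timp2 rose less. Its brightest probe, on chromosome 11 at 118163146 to 118163205, had a signal of 60.9, 49.2 and 50.3 in the wild type hearts and 69.9, 76.5, 86.0 and 74.5 in the knockout hearts. The groups did not overlap, and the log2 fold change was 0.52 (SE 0.13, adjusted p = 0.015, limma). The second probe, whose 60 bases lie within 118171964 to 118178741, had 3.52, 3.06 and 3.08 in wild type and 7.23, 7.25, 7.74 and 7.52 in knockout. It gave a larger log2 fold change of 1.21 (SE 0.11, adjusted p over all probes 0.00021, limma), so the probes agreed in direction and differed in size. At the brightest probe the call was lost without Wild Type_183 (0.47, adjusted p = 0.067) and without Wild Type_189 (0.48, adjusted p = 0.066, limma).

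Timp3, which binds to the matrix and also blocks ADAM proteases, showed no difference larger than the spread. Its signal was 41.5, 21.9 and 31.0 in the wild type hearts and 27.9, 20.8, 25.3 and 26.5 in the knockouts, in the order used above. Mutant_182 lay just under the lowest wild type heart, and the other knockouts lay inside the wild type range. The log2 difference was -0.28 (95% interval -0.81 to 0.24, adjusted p = 0.34, limma), and a second bright probe gave -0.24 (adjusted p over all probes 0.37, limma). With spike-in scaling the sign turned, to 0.28 (adjusted p = 0.38, limma). A further, dim probe on chromosome 10 at 85769407 to 85769466, assigned to another Timp3 transcript, was well above background only in Mutant_187 and Mutant_188 and was not tested.

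Timp4, the inhibitor known for its high expression in heart, had lower values in knockout hearts that did not pass the test. Its brightest probe, on chromosome 6 at 115195840 to 115195899, had a signal of 8.42, 7.69 and 9.67 in the wild type hearts and 7.65, 5.43, 3.45 and 6.38 in the knockout hearts. Mutant_175 lay just under the lowest wild type heart and Mutant_187 was the lowest of all. The log2 difference was -0.64 (95% interval -1.26 to -0.02, adjusted p = 0.088, limma). The other probes gave -0.58 and -0.47, with overlapping groups and no call (adjusted p over all probes 0.28 and 0.42, limma). Without Mutant_175 Timp4 was called lower, at -0.80 (adjusted p = 0.032), and with array weights at -0.62 (adjusted p = 0.022, limma). With spike-in scaling the difference was -0.07 (adjusted p = 0.82, limma). Of the inhibitors, Timp1, Timp3 and Timp4 lie inside the synapsin genes Syn1, Syn3 and Syn2 in the RefSeq annotation, and Timp2 inside no other protein-coding gene.

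**Figure D2:**
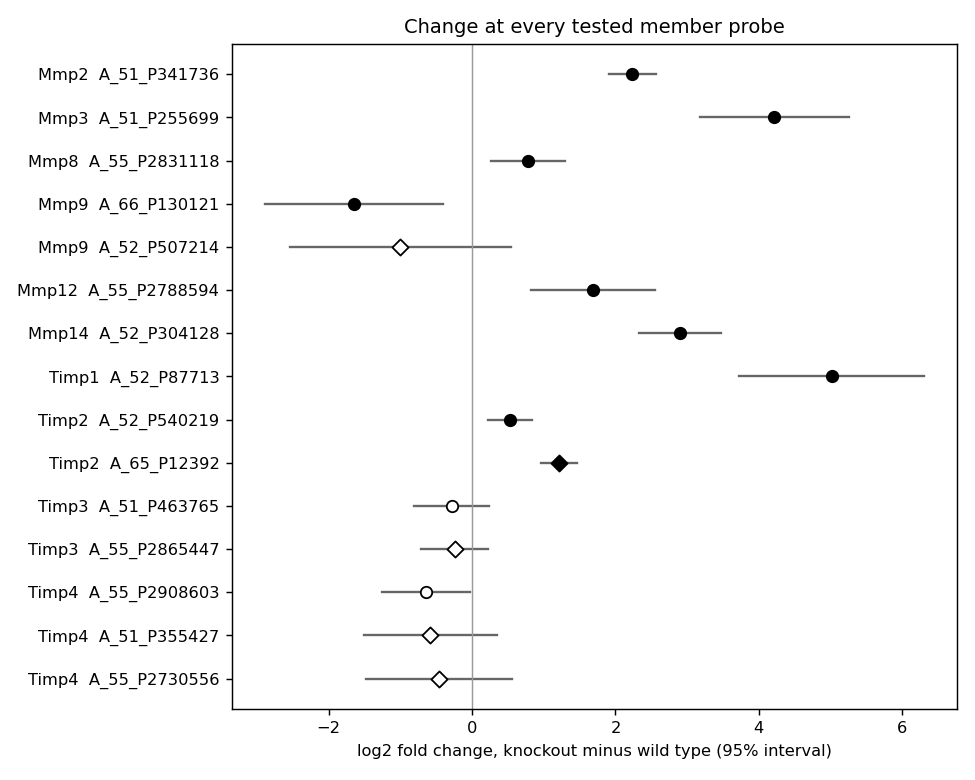
Log2 fold change, knockout minus wild type, with its 95% interval from limma, at each of the 15 member probes that passed the filter. Circles are the probes used for the gene and diamonds further probes of the same gene, filled where called. In all 9 of 15 are filled, beside 40.5% of all probes tested. Of the filled probes, those of Mmp3 and Mmp12 entered the fit only through the knockout arrays. Both Timp2 probes are filled and above 0, while the 2 Mmp9 probes are both below 0 and 1 of them is filled.

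Within an array, the change of a protease can be set against that of an inhibitor without any choice of scaling by a constant. Pairs known to bind each other were used, each as the log2 signal of the protease minus that of the inhibitor, relative to the wild type mean. Mmp2 relative to Timp2 was 0.02, -0.05 and 0.03 in the wild type hearts and 1.78, 1.74, 1.72 and 1.62 in the knockout hearts. The knockouts were tightly grouped, with an SD of 0.07. The ratio was higher in knockout by 1.71 on the log2 scale, 3.28-fold. Mmp14 relative to Timp2 was -0.27, -0.02 and 0.29 in wild type and 2.18, 2.75, 2.60 and 1.98 in knockout, higher by 2.38, or 5.20-fold.

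Mmp9 relative to Timp1 went the other way. It was 0.52, -0.15 and -0.37 in wild type and -6.60, -6.53, -7.01 and -6.53 in knockout, a difference of -6.67. Most of this difference is the rise of Timp1, at 5.02, beside Mmp9 at -1.65. Timp1 also rose more than Mmp2 (2.24) and Mmp14 (2.90), so the direction of a pair depends on the inhibitor chosen. In Mutant_175 the Mmp9 probe was not well above background, so the ratio there is not an exact value, and leaving out each array in turn gave differences of -6.85 to -6.41. Each of the 3 ratios gave an exact two-sided permutation p of 0.029 over the 35 splits of the arrays, the smallest that they can give, and 0.029 after Benjamini-Hochberg adjustment over the 3 pairs. The pairs were chosen with earlier results of these data known, so these p-values are no support beyond the values of the members themselves. With the second probe of Timp2 the differences were smaller, 1.03 for Mmp2 and 1.69 for Mmp14, and with the second probe of Mmp9 the ratio to Timp1 was at -6.02, from a probe not well above background in Mutant_175 and Mutant_188.

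**Figure D3:**
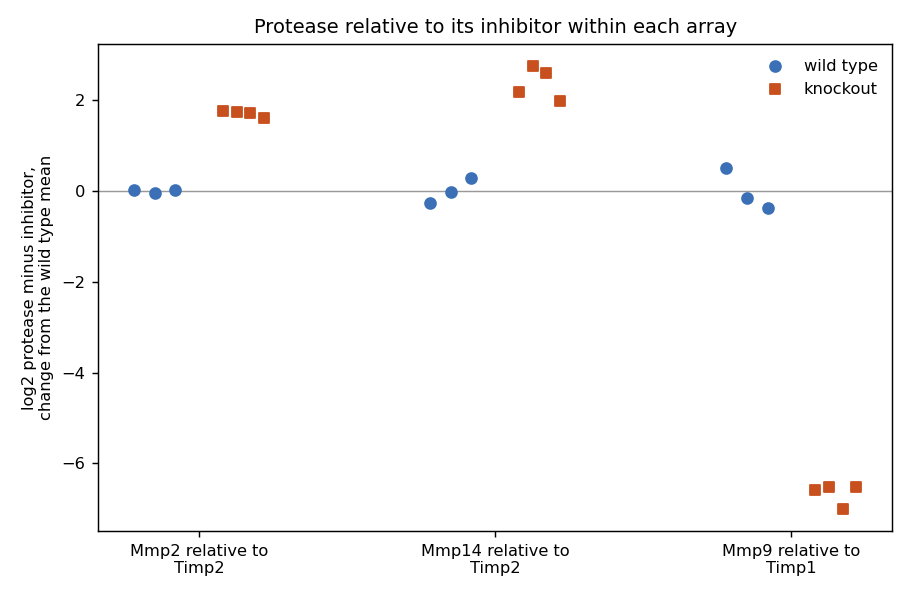
Log2 signal of a protease minus that of an inhibitor on each array, as the change from the mean of the wild type arrays, for 3 pairs. Circles are the 3 wild type and squares the 4 knockout arrays: the knockouts lie above wild type for both pairs with Timp2 and below it for Mmp9 relative to Timp1.

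The directions of the members held under most scalings. Mmp2, Mmp3, Mmp8, Mmp12, Mmp14, Timp1 and Timp2 were higher with 75th percentile, quantile, median, bright-probe, spike-in and normexp scaling. Mmp9 was lower with each of these but not called with the bright-probe percentile or spike-in RNA. The sizes of dim members depended on the background correction. Mmp3 was at 4.22 with the processed signal and 1.55 with normexp, and Mmp9 at -1.65 and -0.73. Mmp8 was at 0.78 and 0.44, and Mmp14 at 2.90 and 2.22.

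**Figure D4:**
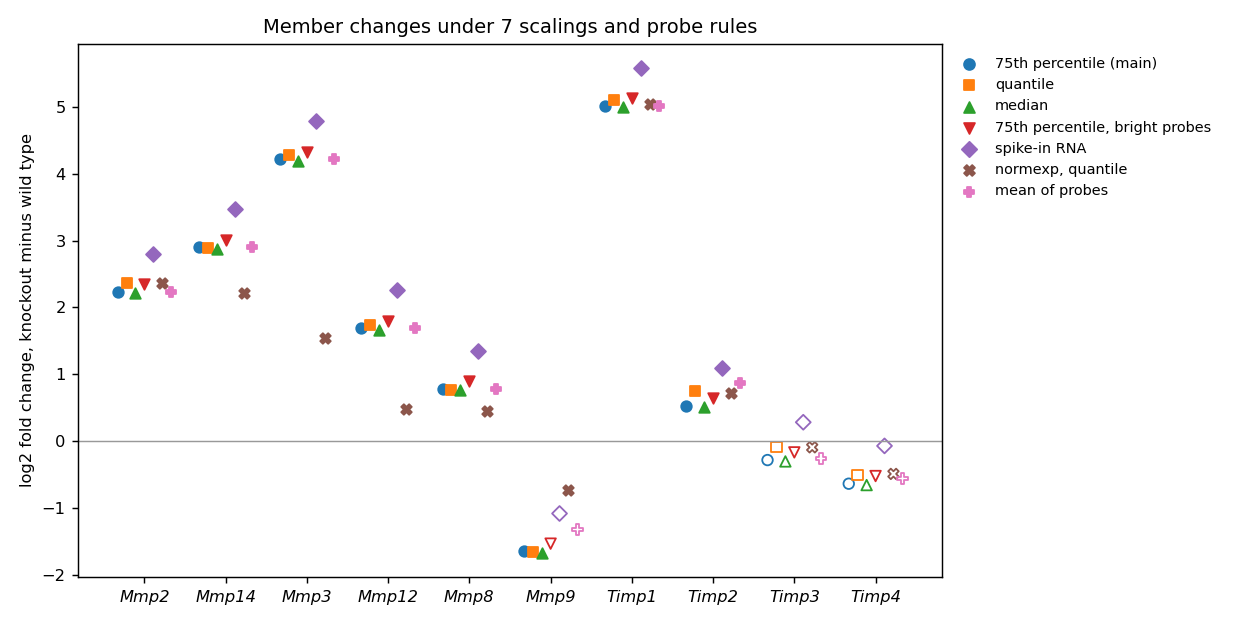
Log2 fold change of each member under the 75th percentile scaling and 6 other choices of scaling or probe, filled where the adjusted limma p was under 0.05. Spike-in scaling (purple diamonds) moves every member up by a like amount. Normexp (brown crosses) shrinks Mmp3, Mmp12 and Mmp9 most, and also Mmp8 and Mmp14.

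The other metalloproteinases on the array were mostly undetected. Of 17 listed, 7 passed the filter, 6 were called higher and 0 lower, beside 16.3% and 25.8% of all genes. The median of the 7 was 0.60. Mmp19, a secreted protease, rose by 1.58 (SE 0.20, adjusted p = 0.00085, limma). Mmp28 (epilysin) rose by 0.60 and Mmp11 (stromelysin 3) by 0.48, a call lost without Wild Type_181 or Wild Type_189. Without Wild Type_189 only 2 of the 7 were called higher.

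ADAMTS proteases, secreted relatives that cleave proteoglycans and process procollagen, had 9 of 17 called higher and 1 lower. Their median was 1.22, and of all genes 16.3% were called higher and 25.8% lower. Of the 9, Adamts20 was well above background on 0 wild type arrays and entered the fit only through the knockouts. Adamts1, which cleaves versican, rose by 3.04 (SE 0.19, adjusted p = 4.6e-05, limma). Adamts2, a procollagen peptidase, rose by 2.34 and Adamts12 by 2.15, while Adamts7 fell by 1.69. Genes of the ADAM family, which includes membrane-anchored sheddases, had 4 of 11 called higher and 1 called lower. Their median was 0.35, and the share called was near the 42.1% of all genes called in either direction. Adam8 rose by 3.02, Adam19 by 1.76 and Adam22 by 0.68. Adam17, the TNF-converting enzyme that Timp3 is known to block, fell by 0.54 but was at 0.02 with spike-in scaling, and at -0.28 with the mean over its probes and -0.49 without Wild Type_189, none of them called.

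Genes of metalloproteinase activation, binding and clearance moved both ways, 8 of 14 called higher and 4 lower, beside 16.3% and 25.8% of all genes. Their median was 0.93. Of these, A2m (a broad protease inhibitor) entered the fit only through the knockout arrays, where it is high, and Plg only through the wild type arrays. Lrp1, an endocytic receptor that clears proteases and TIMP complexes, rose by 1.38. Cd44, a hyaluronan receptor that docks Mmp9 at the cell surface, rose by 1.86. Bsg (basigin, an inducer of metalloproteinases) fell by 1.38 and Furin, the convertase that activates Mmp14, by 0.61, though the mean over the Furin probes was 0.24, spike-in scaling gave -0.05 and quantile normalization -0.26, none of them called. Plg, plasminogen, was at least 1.90-fold lower, since all 4 knockout arrays had it too dim to count as above background. With normexp the log2 fold change of Plg was -0.53, a smaller fall than that bound. Reck, a membrane inhibitor of several metalloproteinases, was at 0.40 and not called (adjusted p = 0.080, limma).

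Factors and cytokines known to act on these promoters numbered 19, of which 8 were called higher and 1 lower. Their median was 0.58, and the share called was near the 42.1% of all genes called in either direction. Etv4 (an ETS factor) rose by 3.59 (SE 0.45, adjusted p = 0.00083, limma) and Fos, a subunit of AP-1, by 1.17. Fosl1, another AP-1 subunit, was at least 1.86-fold higher, since it was well above background on no wild type array. Like the Mmp3 bound, that of Fosl1 did not hold with normexp, where the log2 fold change was 0.60, under the bound. Ets2 fell by 0.50 and was at 0.07 with spike-in scaling. Of the Jun genes, partners of Fos in AP-1, Junb rose by 1.12 (adjusted p = 0.014, limma). Jun was at 0.07 and Jund at 0.16, and neither was called (adjusted p = 0.82 and 0.38, limma). The Jun genes are named outside the rule for these lists. Of the 8 higher calls, Fosl1 entered the fit only through the knockout arrays.

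**Figure D5:**
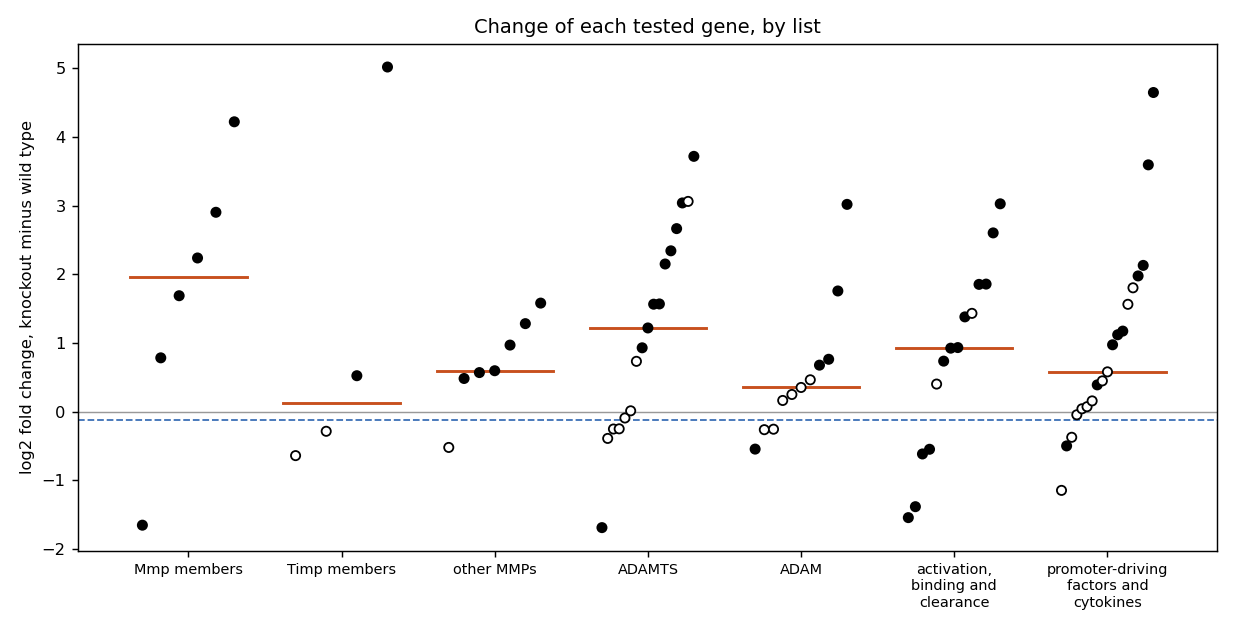
Log2 fold change, knockout minus wild type, of each gene that passed the filter in the protease and inhibitor members and in 5 further lists, filled where called. Orange lines are list medians, from 0.12 for the Timp members to 1.96 for the Mmp members. With Mmp3 and Mmp12 at the lower bound of their change, the Mmp median was 1.61. The dashed line is the median over all genes, -0.12.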

How the data were processed

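Total RNA from 7 heart samples was labelled with Cy3 and hybridised to 1-colour Agilent SurePrint G3 mouse arrays, per the labels' protocols. The authors deposited scanner files from Agilent Feature Extraction 10.7.3.1, per the file headers. The values used are their processed signal, a background-subtracted intensity, with other columns for flags and probe positions (mm9). Their deposited value table holds the same intensity (99.6% of cells within 0.01 on the log2 scale), not centred or scaled, with column medians of 45.9 to 83.3. Spots marked as outliers were dropped, 82 to 146 of 59305 per array, spots of a probe were averaged, and the log2 value was taken relative to the array's 75th percentile. Between 58.1% and 63.6% of spots were well above background. Their number, 7 arrays, limits the precision. The filter kept 34481 probes, those well above background on 3 or more arrays, and each gene took its brightest kept probe. Probes were named by accession through a RefSeq table (GRCm38.p6), which matched 32994, else by the file. limma 3.58.1 in R 4.3.3 (lmFit, eBayes) compared the groups over the 7 arrays with no covariate, and p-values were adjusted by Benjamini-Hochberg. The method was tested on simulated data in which, unlike here, only a small share of probes changed. All samples share 1 slide, and figures used matplotlib 3.10.9.

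The members and gene lists were chosen with earlier results of these data known. Beside all members, each list names up to 3 called genes per direction with the smallest p, or up to 2 if none is called (1 such gene is not reported here); beyond it, Reck, the Jun genes, Adamts20, A2m, Csf3r and Ly6g were named after their values were seen. The alternatives were other scalings, background correction, filters, probe rules, spread models and left-out arrays; the pairs with the second Timp2 or Mmp9 probe were added after the data were seen.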

Additional observations from a re-analysis of the deposited data

Results flagged for a closer look

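In 3 of 18 comparisons of the 4 knockout arrays (15 member probes and 3 pairs), 1 array stood apart from the other knockouts, by a gap that passed Dixon's limit for 4 values. Chance gives such a gap in about 1 of 20 groups. Mmp3 was at -3.78 on the log2 scale in Mutant_188, against -2.06 to -1.91 in the other knockouts. The dim Timp4 probe at 115196869 to 115196928 on chromosome 6 was at -1.99 in Mutant_175, against -2.95 to -2.80. Mmp9 relative to Timp1 was at -7.01 in Mutant_187, against -6.60 to -6.53.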

How the results depend on the processing

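No paired analysis was possible because the groups share no replicate numbers. Of the values and counts that answer a comparison, 484 of 530 recomputed ones held. A tested value held if it kept its direction and its side of the threshold. A count held if it stayed within 1.5 times the reported count. With arrays left out, a pair held if it kept its direction and moved by less than the SD of the knockouts. Spike-in scaling called 8538 genes higher and 1710 lower. It gave ADAM family genes 8 higher and 0 lower, the activation and clearance list 2 lower, the promoter-driving factors 0 lower, and Timp3 0.28. Mmp9, and with it the only lower call among the member proteases, was lost with the bright-probe percentile (-1.54, 0 lower), spike-in RNA (-1.08, 0), no filter (-1.65, 0) and the mean over probes (-1.33, 0). The filter over all arrays left out Mmp3, Mmp9 and Mmp12, so that 3 member proteases were called higher and 0 lower. The mean over probes called 0 ADAM proteases lower. Array weights called Timp4 lower (-0.62, 1 inhibitor lower) and 2 promoter-driving factors lower. Without Mutant_175 and Mutant_187 together Timp4 was called lower (-0.54, 1 inhibitor lower). With spike-in scaling Adam17, lower as reported, was at 0.022 and Ets2 at 0.069, and with the mean over probes Furin was at 0.24. The cause of these changes was not tested, apart from those that follow from the genes or probes an alternative leaves out or averages.

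Leaving out each array in turn, Mmp8 ranged from 0.65 to 1.004, Mmp9 from -1.92 to -1.13, Timp2 from 0.47 to 0.62 and Timp4 from -0.80 to -0.41. Mmp9 relative to Timp1 ranged from -6.85 to -6.41; with 6 arrays the exact test cannot pass the threshold. Counts ranged from 0 to 1 for lower ADAM proteases, lower member proteases and lower inhibitors, 1 to 2 for higher inhibitors, lower ADAMTS proteases and lower promoter-driving factors, and 2 to 6 for other metalloproteinases called higher. Signals near background limit the sizes given for Mmp3, Mmp9 and Mmp12, and the sizes of Mmp8 and Mmp14 were also smaller with normexp.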
